A study of Mus musculus with 6 samples.

Results

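Genes that set the supply of phosphate and the level of pyrophosphate around bone-forming cells were followed in MC3T3-E1 cells with and without metformin. They were the rows of the deposited table named Alpl, Phospho1, Smpd3, Enpp1, Ank, Slc20a1 and Slc20a2, which is 7 of 54532 genes, and all 7 were found. MC3T3-E1, a pre-osteoblast line from mouse, lays down mineralized matrix under osteogenic conditions. Metformin is a biguanide given to lower blood glucose. All 6 samples came from this 1 line and were kept in osteogenic medium, which the study made with ascorbic acid, β-glycerophosphate and dexamethasone. Osteogenic medium alone was given to 3 samples (the controls), and the other 3 also received 0.2 mM metformin, and RNA was taken at 3 days. The dose and the time are from the study's methods, since the sample labels give neither. The question for each gene was whether its RNA differed between induction with and without metformin.

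Mineral in bone is calcium phosphate, and pyrophosphate, made of a pair of joined phosphates, blocks the growth of its crystals. Alpl encodes tissue-nonspecific alkaline phosphatase, which splits pyrophosphate into phosphate and also frees phosphate from organic esters such as the β-glycerophosphate of the medium. Phospho1 frees phosphate from phosphocholine inside matrix vesicles, and Smpd3, a neutral sphingomyelinase, releases phosphocholine from sphingomyelin. On the other side, Enpp1 makes pyrophosphate from extracellular ATP, and Ank carries pyrophosphate or its nucleotide precursors out of the cell. Slc20a1 and Slc20a2 (PiT-1 and PiT-2) are sodium-dependent carriers that bring phosphate into the cell.

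Values are in FPKM, a unit that divides read numbers by gene length and by library size, so that levels can be set side by side between genes. The reads behind them could be recovered, and totalled 18399861 to 20652437 per control sample and 19256672 to 22111790 per metformin sample. At these depths 3 reads are 1.36e-05% to 1.63e-05% of a sample, as far as counting error goes. Control replicate 1 stood apart: its log2 values had Pearson correlations across genes of 0.960 and 0.952 with the other controls, against 0.988 between those 2 and 0.992 among the metformin samples. Each member is therefore given with and without it. The osteoblast label fitted the markers in part: Runx2 (25.8 to 34.1 FPKM), Sp7 (36.8 to 54.0 FPKM), Col1a1, Col1a2, Sparc and Ibsp were well above 0 in all 6 samples. Bglap, the late marker osteocalcin, was between 2.22 and 12.3 FPKM. Alpl, a member here and the lowest of the 8 markers by control mean, was between 2.44 and 3.84 FPKM. Of the 8 osteoblast markers, Col1a1 and Col1a2 rose with metformin (25%, beside 13.2% of all tested genes). Ibsp, bone sialoprotein, fell (12.5%, beside 9.28%), and these shares rest on few genes. Of other lineages, the muscle regulators Myod1, Myog and Myf5, the fat marker Cfd and the osteoclast enzyme Acp5 were at 0 reads in all 6 samples, and 0 of 4 endothelial markers passed the filter on low values. Adipocyte markers summed to 1.77 to 3.10 FPKM in the controls and 2.09 to 2.46 FPKM with metformin, mostly Fabp4, and myoblast markers to 1.20 to 2.02 FPKM and 2.33 to 2.80 FPKM, mostly Des. Chondrocyte markers summed to 30.1 to 43.6 FPKM in the controls and 29.4 to 31.4 FPKM with metformin, mostly Sox9. Of the 3 tested, 1 fell (33.3%, beside 9.28% of all tested genes). This was Col10a1, the collagen of hypertrophic chondrocytes, at 3.79 ± 0.720 and 0.264 ± 0.0778 FPKM (log2 fold change -1.91, limma adjusted p = 0.00021). Sox9 and Col2a1 (6.44 to 11.9 and 8.35 to 9.70 FPKM) were not called. Matn3, under the filter, went the other way, with 13, 4 and 4 reads in the controls and 35, 36 and 26 with metformin. The macrophage and osteoclast list summed to 245 to 273 FPKM and 150 to 163 FPKM, nearly all of it Ctsk. Both of its 2 tested genes, Ctsk and Cd68, fell (100%, beside 9.28% of all tested genes). Other markers of this list were close to 0: Ptprc had 0 to 6 reads per sample and Adgre1 0 to 1. Csf1r went the other way, with 1, 1 and 3 reads in the controls and 6, 8 and 4 with metformin. The part of these markers in the results was not tested, and in bulk RNA fewer cells of a type and less RNA per cell cannot be told apart.

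With metformin, the pyrophosphate exporter Ank fell by 38.7% and the phosphate carrier Slc20a1 fell by 29.9% of the control mean FPKM. Smpd3 rose by 32.4%, a call that several alternatives removed. The pyrophosphate-making enzyme Enpp1 was close to the limit of detection in every sample and had 41 reads over the controls against 7 with metformin. Neither Alpl, Phospho1 nor Slc20a2 passed the test. Groups were compared by limma on log2(FPKM + 1). The test took in the 12681 genes whose mean reached 0.5 FPKM, with a threshold of 0.05 after Benjamini-Hochberg adjustment. The added 1 makes log2 fold changes of weakly expressed genes smaller than they are. Of the 6 members that passed this filter, 1 was higher and 2 were lower. Among all genes tested, 13.2% were higher and 9.28% were lower. The members are too few for a share of their own to be read against these. Correcting for GC content turned the balance of all calls from 1670 higher and 1177 lower to 2062 higher and 2433 lower.

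The members covered a wide range of levels. In the controls the order was Ank, Slc20a1, Slc20a2, Smpd3, Alpl, Phospho1 and Enpp1, and no neighbours in this order overlapped over the 3 samples. Ank stood at the 96.5th percentile of the control means of tested genes and Slc20a1 at the 80.9th. Slc20a2, Smpd3 and Alpl lay between the 43.1st and the 30.5th percentiles, and Phospho1 at the 9.47th. With metformin the order was the same except for one pair. Smpd3, at 5.89 to 6.60 FPKM, overlapped with Slc20a2, at 5.76 to 6.29 FPKM, and was the higher of the pair within 3 of 3 metformin samples, while Slc20a2 was the higher within 3 of 3 controls.

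**Figure D1:**
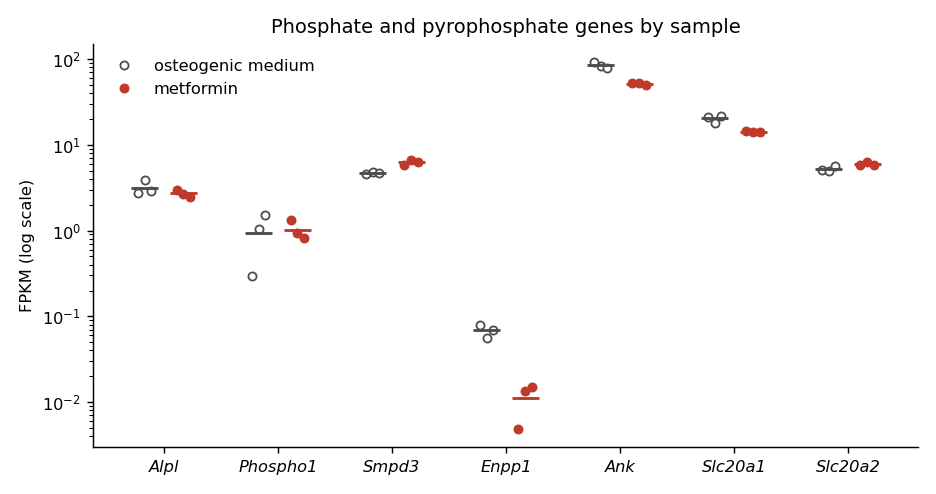
FPKM of the 7 genes (y axis, log scale) in each sample, with open points for osteogenic medium, filled points for metformin and bars at the group means, 3 samples in each group. Ank, Slc20a1 and Enpp1 are lower in all 3 metformin samples than in any control, as are 20.5% of all tested genes, which do not include Enpp1. Phospho1 in control replicate 1 (0.297) lies far below the other controls.

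Alpl, the enzyme that removes pyrophosphate, is on the minus strand at chr4:137741733-137796384 (GRCm38) and overlaps no other annotated gene. It was at 2.73, 3.84 and 2.91 FPKM in the controls and at 3.01, 2.67 and 2.44 FPKM with metformin. The groups overlapped, with 201 to 325 recovered reads per control and 192 to 241 per metformin sample. The means were 3.16 ± 0.596 and 2.71 ± 0.286 FPKM (SD, n = 3), and the log2 fold change was -0.16 with a 95% confidence interval of -0.46 to 0.14 (limma adjusted p = 0.412). Without control replicate 1 it was -0.23 (limma adjusted p = 0.154). The interval holds both a fall and a small rise, so no difference was detectable with 3 samples a group.

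Phospho1, the phosphatase of matrix vesicles, is at chr11:95824499-95832140 on the plus strand. It was at 0.297, 1.03 and 1.50 FPKM in the controls and at 1.32, 0.927 and 0.810 FPKM with metformin. Control replicate 1 held the lowest value, 11 reads against 44 and 60 in the other controls, and the groups overlapped. The coefficient of variation was 64.4% in the controls and 26.1% with metformin. The log2 fold change was 0.10 with a 95% confidence interval of -0.49 to 0.69 (limma adjusted p = 0.816), and it turned to -0.17 without control replicate 1 (limma adjusted p = 0.401). Its transcripts share near-identical sequence with those of the overlapping genes Zfp652 and Abi3, and Zfp652 had up to 1386 reads in a sample. How the counting divided such reads is not given in the sources used here, so the level of Phospho1 is uncertain.

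Smpd3, which supplies the substrate of Phospho1, is on the minus strand at chr8:106252548-106337988. It was at 4.61, 4.79 and 4.74 FPKM in the controls and at 5.89, 6.60 and 6.23 FPKM with metformin. All 3 metformin samples were above all 3 controls, as they were for 23.6% of the tested genes. The means were 4.71 ± 0.0960 and 6.24 ± 0.355 FPKM (SD, n = 3), and the log2 fold change was 0.34 with an SE of 0.077 (limma adjusted p = 0.0224). The call held without control replicate 1 (log2 fold change 0.33, limma adjusted p = 0.00933). It was lost with the correction for GC content (0.28, limma adjusted p = 0.0596), without metformin replicates 1, 2 or 3 (0.38, 0.31 and 0.34, limma adjusted p = 0.0723, 0.116 and 0.0973) and without control replicate 2 (0.35, limma adjusted p = 0.0568). Smpd3 overlaps Prmt7 on the other strand and shares near-identical transcript sequence with it. Prmt7 had up to 693 reads in a sample, against 440 to 752 for Smpd3, so the level of Smpd3 is uncertain too.

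Ank, the pyrophosphate exporter, is at chr15:27466677-27594909 on the plus strand. It was at 91.6, 84.0 and 77.8 FPKM in the controls and at 52.8, 52.7 and 49.8 FPKM with metformin. The groups lay far apart, with 5522 to 6358 reads per control and 3503 to 4147 per metformin sample, and every metformin sample was below every control, as for 20.5% of the tested genes. The means were 84.5 ± 6.89 and 51.8 ± 1.71 FPKM (SD, n = 3). The log2 fold change was -0.69 with an SE of 0.093 and a 95% confidence interval of -0.91 to -0.47 (limma adjusted p = 0.00298). The fall was called under 9 of 9 other settings and with each of the 6 samples left out, and it was -0.63 without control replicate 1 (limma adjusted p = 0.00044). Ank overlaps Otulin, on the other strand, which had up to 554 reads in a sample, and 3 other annotated genes with at most 2 reads.

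Enpp1, the pyrophosphate-making enzyme, is on the minus strand at chr10:24637914-24712159 and overlaps no other gene. It had 15, 12 and 14 reads in the controls and 1, 3 and 3 reads with metformin, which is 0.0801, 0.0558 and 0.0694 FPKM against 0.00491, 0.0134 and 0.0150 FPKM. The groups did not overlap, although the metformin values rest on 3 reads or fewer. Of the tested genes 20.5% were apart in the same direction, but all of those reached a mean of 0.5 FPKM, far above the level of Enpp1. Since its mean FPKM was under 0.5 it did not enter the test, and the reads were summed instead. The scaled ratio of metformin to control reads was 0.165 with an exact 95% interval of 0.0623 to 0.370, which is 6.08-fold lower (2.70 to 16.1) and covers counting error only. An exact two-sided permutation test over the samples gave p = 0.1, the smallest that 3 against 3 can reach. A fit of the recovered reads by voom in limma, chosen after these values were seen, gave a log2 fold change of -2.46 (adjusted p = 0.0198). The planned fit with no filter on low values did not call Enpp1, at -0.080 (limma adjusted p = 0.0600). In that fit the added 1 far exceeds the FPKM of Enpp1. Without control replicate 1 the log2 ratio of summed reads was -2.48, against -2.60 with all samples.

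Slc20a1, the more abundant phosphate carrier, is at chr2:129198764-129211616 on the plus strand. It was at 21.3, 18.1 and 21.7 FPKM in the controls and at 14.6, 14.1 and 14.2 FPKM with metformin. The metformin samples were close together and all below the controls, as for 20.5% of the tested genes. The means were 20.4 ± 1.96 and 14.3 ± 0.235 FPKM (SD, n = 3), and the log2 fold change was -0.48 with an SE of 0.094 and a 95% confidence interval of -0.70 to -0.26 (limma adjusted p = 0.0126). Without control replicate 1 it was -0.45 (limma adjusted p = 0.0056). The call was lost without metformin replicates 1, 2 or 3, at -0.49, -0.47 and -0.47 (limma adjusted p = 0.0617, 0.0685 and 0.0667). Slc20a1 overlaps the antisense genes Gm4430 and 9830144P21Rik, with up to 310 and 66 reads, and shares near-identical sequence with both. It had 1540 to 2381 reads per sample itself, and whether the counting used strand is not given in the sources used here.

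Slc20a2, the other carrier of the family, is at chr8:22476788-22569612 on the plus strand. It was at 5.12, 4.98 and 5.61 FPKM in the controls and at 5.82, 6.29 and 5.76 FPKM with metformin. The 3 metformin samples were all above the controls, by a narrow margin, as for 23.6% of the tested genes. The means were 5.23 ± 0.330 and 5.96 ± 0.291 FPKM (SD, n = 3), and the log2 fold change was 0.16 with a 95% confidence interval of -0.037 to 0.35 (limma adjusted p = 0.217). Without control replicate 1 it was 0.15 (limma adjusted p = 0.160). Slc20a2 overlaps Smim19 on the other strand, which had up to 664 reads against 581 to 852 for Slc20a2, so its level is uncertain too.

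**Figure D2:**
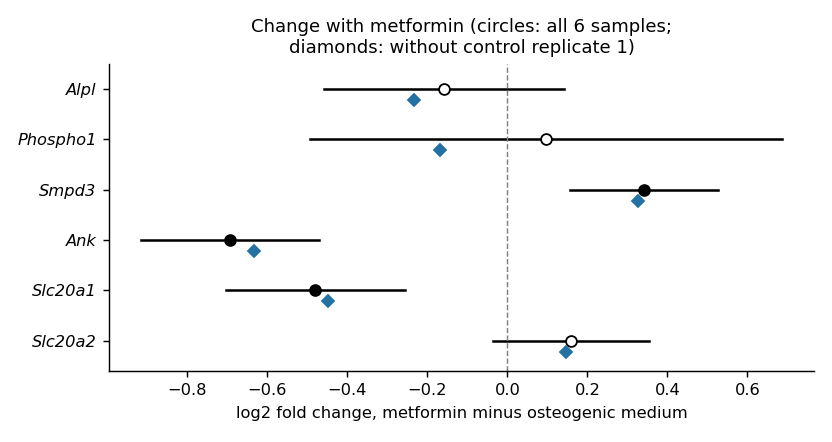
Log2 fold change of log2(FPKM + 1), metformin minus osteogenic medium (x axis), for the 6 members tested, as circles with 95% confidence intervals over all 6 samples, filled where the adjusted p is under 0.05. Diamonds are the values without control replicate 1, and they keep the sign of the circle for every gene shown except Phospho1, which moves from 0.10 to -0.17.

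The bases before the starts of Ank and Slc20a1 are shown because both genes fell. RefSeq promoter entries (GRCm38.p6) were found for 5 of the 7 members, all but Slc20a2 and Smpd3. Each sequence below is the 250 bases before the RefSeq start on the plus strand, 5′ to 3′, in lower case, with matches to the motifs in capitals. The Ank window is chr15:27466427-27466676, with a GC content of 81.2%, and the Slc20a1 window is chr2:129198523-129198772, with a GC content of 75.2%.
Ank: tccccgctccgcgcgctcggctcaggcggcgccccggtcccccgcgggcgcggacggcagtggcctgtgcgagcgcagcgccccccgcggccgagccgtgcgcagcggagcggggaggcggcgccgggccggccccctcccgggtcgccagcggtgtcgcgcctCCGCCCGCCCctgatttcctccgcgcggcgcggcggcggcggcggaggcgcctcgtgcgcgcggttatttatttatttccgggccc
Slc20a1: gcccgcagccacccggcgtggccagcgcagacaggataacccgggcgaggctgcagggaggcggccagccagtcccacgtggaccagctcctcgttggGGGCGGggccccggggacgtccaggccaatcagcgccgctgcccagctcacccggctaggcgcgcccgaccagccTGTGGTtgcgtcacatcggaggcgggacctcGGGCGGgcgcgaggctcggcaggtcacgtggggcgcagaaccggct
The capitals in Ank are a pair of overlapping GC boxes on the minus strand (CCGCCC), which begin 86 and 82 bases before the start. In Slc20a1 the capitals are GC boxes (GGGCGG) 152 and 46 bases before the start and a RUNX core (TGTGGT) 77 bases before it. A window before another start of Slc20a1, chr2:129206846-129207095, is not shown. It had a GC content of 50.8% and held a GC box (CCGCCC) but no RUNX core. In all, 5 motifs were searched on both strands. Of 32851 promoters of this length, 32.7% held a GC box, 14.0% a RUNX core, 12.4% a TATA box (TATAAA), 6.75% an AP-1 site (TGANTCA) and 1.55% a CRE (TGACGTCA). The other 3 members with an entry also held a GC box in a 250-base window, Enpp1 held a RUNX core, Phospho1 held an AP-1 match, and a window before another start of Alpl held a TATA box. These matches describe the letters of the windows only, and binding was not measured.

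Ratios within a sample do not depend on how the libraries were scaled, and 5 pairs of members with linked roles were compared. The Slc20a1 to Slc20a2 ratio was 4.16, 3.64 and 3.87 in the controls and 2.50, 2.25 and 2.46 with metformin. The groups were well apart, and the fall was 0.70 on the log2 scale, from 1.96 ± 0.097 to 1.26 ± 0.083 (SD, n = 3). Slc20a1 made up 79.5% ± 1.09 of the summed FPKM of the 2 carriers in the controls and 70.6% ± 1.20 with metformin, and the sum itself was 25.6 ± 2.22 and 20.2 ± 0.278 FPKM. Slc20a2 thus held a larger share of a smaller sum.

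The ratios of Alpl to Ank and to Enpp1 were higher in every metformin sample than in any control. Alpl itself did not rise, with means of 3.16 FPKM in the controls and 2.71 FPKM with metformin, while Ank and Enpp1 were lower. The log2 ratio of Alpl to Ank was -4.75 ± 0.31 in the controls and -4.26 ± 0.11 with metformin (SD, n = 3), a difference of 0.49. For Alpl to Enpp1 the log2 ratio was 5.53 ± 0.52 and 8.08 ± 1.03, a difference of 2.55, where the metformin values rest on 1 to 3 reads of Enpp1. The log2 ratio of Enpp1 to Ank, the maker to the exporter, was -10.28 ± 0.24 and -12.34 ± 0.92, a difference of -2.06 with the same limit. Adding 0.1 FPKM to each value brought the difference for Alpl to Enpp1 down to 0.39 and turned that for Enpp1 to Ank to 0.10, so both rest on Enpp1 values under 0.1 FPKM. With nothing added, the groups of these and of the carrier pair did not overlap (4 pairs). Each had an exact two-sided permutation p = 0.1, the smallest possible with 3 against 3, and 0.125 after Benjamini-Hochberg adjustment over the 5 ratios. How many other gene pairs were apart was not worked out, and of single tested genes 23.6% were apart upward and 20.5% downward. Alpl to Ank follows from the other ratios among Alpl, Enpp1 and Ank, so these are not separate results. Phospho1 to Smpd3, the vesicle phosphatase to the enzyme that makes its substrate, differed by -0.037 (exact permutation p = 1), and its sign turned when single samples were left out.

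**Figure D3:**
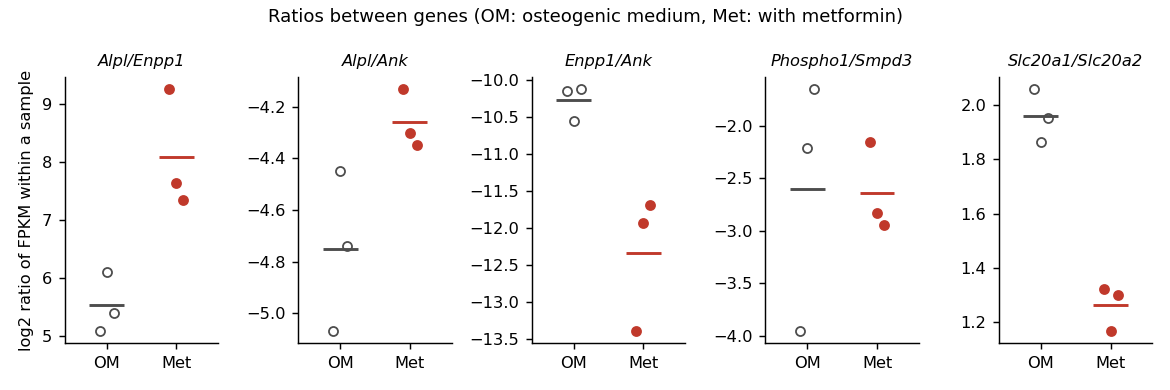
Log2 ratio of FPKM within a sample (y axis, a separate scale in each panel) for 5 pairs of genes, with open points for osteogenic medium (OM), filled points for metformin (Met) and bars at the means, 3 samples in each group. The groups are apart in all panels except Phospho1/Smpd3, and Slc20a1/Slc20a2 falls from about 1.96 to 1.26. Alpl/Ank follows from Alpl/Enpp1 and Enpp1/Ank, so these panels are not separate results.

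A wider set of 84 genes of phosphate handling and mineralization was listed by role. Of these, 58 were tested. Higher were 7 (12.1%, beside 13.2% of all tested genes) and lower were 13 (22.4%, beside 9.28%), and their median log2 fold change was 0.05 beside 0.01 over all tested genes. Without control replicate 1, 15 were higher (25.4%, beside 23.5% of all genes then tested) and 16 lower (27.1%, beside 20.4%). Without any 1 metformin replicate, 1 was higher (1.69%, beside 7.29% to 7.64%) and 8 or 9 were lower (13.6% to 15.3%, beside 3.83% to 4.15%). The counts of the single lists below rest on few genes and are to be read beside the same 13.2% and 9.28%.

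Among 13 genes of extracellular pyrophosphate and adenosine, 9 were tested, 3 rose (33.3%) and 2 fell (22.2%), with a median log2 fold change of 0.09. The largest fall was that of Nt5e (CD73), which turns AMP into adenosine next to Alpl on the cell surface. Nt5e was at 9.47, 7.11 and 6.03 FPKM in the controls and at 2.06, 2.61 and 2.26 FPKM with metformin, a log2 fold change of -1.35 with an SE of 0.16 (limma adjusted p = 0.00162). Enpp2, a relative of Enpp1 known for making lysophosphatidic acid and not pyrophosphate, fell from 3.21 ± 1.05 to 1.15 ± 0.109 FPKM (log2 fold change -0.94, limma adjusted p = 0.0104). Panx3, a channel that lets ATP out of osteoblasts, rose from 6.50 ± 1.51 to 10.2 ± 0.144 FPKM (0.59, limma adjusted p = 0.0298). Ppa1, the soluble pyrophosphatase inside the cell, rose from 12.1 ± 2.42 to 18.4 ± 1.03 FPKM (0.58, limma adjusted p = 0.0286). Entpd5, a nucleoside diphosphatase, rose from 2.26 ± 0.220 to 3.38 ± 0.0164 FPKM (0.43, limma adjusted p = 0.0137). The 3 rises were lost without any 1 metformin replicate (Entpd5 limma adjusted p = 0.0665 to 0.0713). Those of Panx3 and Ppa1 were also lost without control replicate 2 and with no filter on low values (limma adjusted p = 0.0693 and 0.0625 with no filter). The fall of Enpp2 was lost without metformin replicate 1 (limma adjusted p = 0.0509). The fall of Nt5e was called with each of the 6 samples left out. Abcc6, also on this list, had 0 to 8 reads per sample and was not tested.

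None of the 4 tested genes among 8 other phosphate carriers and sensors passed the test in limma, and 2 had an unadjusted p under 0.05. By voom on the recovered reads 0 passed. With the GC correction 1 was higher (Slc25a3) and 1 lower (Slc37a4, a glucose 6-phosphate carrier), and Slc25a3, Xpr1 (both higher) and Slc37a4 (lower) passed without control replicate 1. Xpr1, the phosphate exporter, was at 5.44, 3.65 and 3.75 FPKM in the controls and at 4.68, 5.12 and 4.73 FPKM with metformin, and the groups overlapped. Of the renal and intestinal carriers, Slc34a1 and Slc34a3 were at 0 reads in all 6 samples, and Slc34a2 had at most 5 reads. Slc25a3, which carries phosphate into mitochondria, was at 68.5, 63.5 and 53.1 FPKM and at 79.1, 77.1 and 75.3 FPKM (log2 fold change 0.33, limma adjusted p = 0.0843). Its groups did not overlap, as for 23.6% of the tested genes in this direction.

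Of 14 systemic regulators of phosphate and mineral, 6 were tested, 4 fell (66.7%, beside 9.28% of all tested genes) and 1 rose (16.7%, beside 13.2%), with a median log2 fold change of -0.60. Dmp1, a phosphoprotein of the bone matrix, fell from 74.8 ± 5.32 to 37.5 ± 1.94 FPKM (SD, n = 3), with a log2 fold change of -0.97 and an SE of 0.093 (limma adjusted p = 0.00068). Fgfr1, a receptor for FGF23, fell from 117 ± 8.87 to 59.0 ± 1.52 FPKM, with a log2 fold change of -0.97 and an SE of 0.091 (limma adjusted p = 0.00064). Pth1r, the receptor for parathyroid hormone, and Fam20a, the partner of a matrix protein kinase, also fell, by 0.55 and by 0.64 on the log2 scale (limma adjusted p = 0.0133 and 0.0041). Vdr, the vitamin D receptor, rose from 8.51 ± 0.180 to 13.3 ± 0.321 FPKM (0.59, limma adjusted p = 0.0020). The calls of Dmp1, Fgfr1, Fam20a and Vdr held with each of the 6 samples left out, and that of Pth1r was lost without any 1 metformin replicate (limma adjusted p = 0.0636 to 0.0703). Phex and Mepe did not pass the filter on low values, with 44 to 82 and 11 to 36 reads per control and 20 to 24 and 4 to 9 reads per metformin sample. Kl, the partner of Fgfr1 for FGF23, was at 0 reads in all 6 samples.

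Of 21 genes of matrix vesicles and phosphocholine supply, 20 were tested, 1 rose (5.0%) and 3 fell (15.0%), with a median log2 fold change of 0.05. Anxa2, an annexin of the vesicle membrane, rose from 146 ± 12.2 to 209 ± 2.42 FPKM (0.52, limma adjusted p = 0.0097). Chka, which makes phosphocholine from choline, fell from 5.46 ± 0.406 to 3.58 ± 0.0260 FPKM (-0.49, limma adjusted p = 0.0068). Smpd2, a second neutral sphingomyelinase, fell from 8.49 ± 1.59 to 4.48 ± 0.320 FPKM (-0.78, limma adjusted p = 0.0087), while Smpd3 was higher as given above. Phospho2, a relative of Phospho1 that acts on pyridoxal phosphate, fell from 7.14 ± 1.19 to 4.37 ± 0.666 FPKM (-0.60, limma adjusted p = 0.0259). The calls of Anxa2 and Phospho2 were lost without any 1 metformin replicate. That of Phospho2 was also lost without control replicate 2 and with no filter on low values (limma adjusted p = 0.0642 with no filter). Those of Chka and Smpd2 held with each of the 6 samples left out.

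Among 12 genes that load alkaline phosphatase with zinc or anchor it to the membrane, 11 were tested and 1 (9.09%, beside 9.28% of all genes) was lower. It was Pigv, a mannosyltransferase of the membrane anchor, which fell from 3.88 ± 0.210 to 2.94 ± 0.137 FPKM (-0.31, limma adjusted p = 0.0355). This call was lost with any 1 sample other than control replicate 1 left out (limma adjusted p = 0.0682 to 0.156) and with no filter on low values (limma adjusted p = 0.0905). Of 8 other alkaline and acid phosphatases, 3 were tested and 1 passed. Acp6, which acts on lysophosphatidic acid, fell from 4.14 ± 0.723 to 2.49 ± 0.0991 FPKM (-0.55, limma adjusted p = 0.0202), and the other alkaline phosphatase genes Alpi and Alppl2 were at 0 reads in all 6 samples while Akp3 had 1 read in 1 sample. The call of Acp6 was lost with any 1 sample other than control replicate 1 left out (limma adjusted p = 0.0531 to 0.0880) and with no filter on low values (limma adjusted p = 0.0584). Alpl thus held nearly all of the detected alkaline phosphatase RNA on the list.

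Of 8 inhibitors of mineralization, 5 were tested, 2 fell and 2 rose (40.0% each), with a median log2 fold change of 0.38. The pair that fell were the most abundant genes of these 7 lists in the controls. Spp1 (osteopontin), which binds mineral through its acidic phosphorylated stretches, fell from 7703 ± 989 to 2704 ± 23.4 FPKM (-1.50, limma adjusted p = 0.00047). Mgp, matrix Gla protein, fell from 2917 ± 372 to 1254 ± 60.2 FPKM (-1.21, limma adjusted p = 0.00096). Fbn1, fibrillin of the microfibrils, rose from 4.87 ± 0.764 to 7.16 ± 0.499 FPKM (0.48, limma adjusted p = 0.0273), and Fetub, a fetuin, rose from 0.823 ± 0.107 to 1.42 ± 0.110 FPKM (0.41, limma adjusted p = 0.0260). Both rises were lost with any 1 sample other than control replicate 1 left out (limma adjusted p = 0.0643 to 0.115 for Fbn1 and 0.0595 to 0.114 for Fetub). The falls of Spp1 and Mgp held in all 6 of these fits, and with no filter on low values none of the 4 was called. The median of the list and its summed FPKM, 9380 to 11615 in the controls and 4002 to 4096 with metformin, differ in direction.

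**Figure D4:**
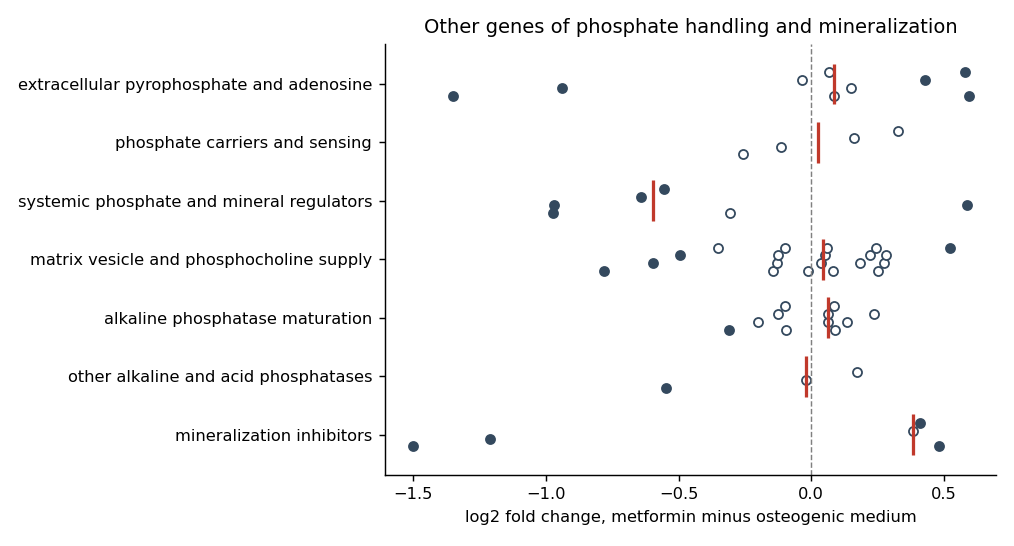
Log2 fold change of log2(FPKM + 1), metformin minus osteogenic medium (x axis), for the 58 tested genes of 7 lists (rows), filled where the adjusted p is under 0.05, with a red bar at each list's median. The systemic regulators have the lowest median (-0.60), and the pair farthest to the left in the bottom row are Spp1 and Mgp.

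For each member past the threshold, the tested genes with the most similar profile over the 6 samples were found by the root mean square difference of mean-centred log2 values. For Ank they were Rab31 (0.0347), St3gal1 (0.0416) and Gla (0.0420). For Slc20a1 they were Zscan29 (0.0363), Jmy (0.0396) and Trim25 (0.0410). For Smpd3 they were Dis3l (0.0259), Ilf2 (0.0290) and Camk2g (0.0297). All 9 moved with metformin in the direction of the member they resembled, which the measure favours, since it includes the group difference.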

How the data were processed

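RNA sequencing of MC3T3-E1 cells was compared between 3 samples in osteogenic medium and 3 that also received metformin, which the study calls biological replicates. The labels do not say that the samples were separate cultures, so p-values measure only the spread between these samples. The authors deposited 1 table of 54532 genes with FPKM values and gene lengths, and the table names no unit. Multiplied by gene length, 100% of the values in a sample were whole numbers of 1 step (tolerance 0.01), which identified the unit and gave back the reads. The submitters' processing notes name Bowtie 0.12.2 and the builds mm8 and mm9, whereas 53499 of 54409 matched gene identifiers have the coordinates of GENCODE M21 (GRCm38), which are those given here. The counting tool and its use of strand are not given in the sources used here. The authors compared the groups with DESeq2. The table held 0 further per-sample columns that match no sample here.

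The members, the lists and their tests were chosen with earlier results of these data known. Groups were compared with limma 3.58.1 (R 4.3.3) with an intensity trend on log2(FPKM + 1), and 12681 genes whose mean reached 0.5 FPKM were tested. Ratios were compared by exact permutation over samples (scipy 1.17.1). The genes named are the 7 members, list genes past the threshold and others where a count of 5 or fewer needs a name, markers, and the 3 nearest profiles of each member past the threshold. Of the 84 listed genes, 83 were matched by name. Near-identical transcripts were those matching at 95% identity or more for 200 bases or more in BLAST+ 2.17.0. Promoters are RefSeq's, matched by symbol, and the 50 bases after each start were left out. The main fit was tried on simulated data with the same extra spread for all genes and samples. That trial does not cover a sample that stands apart, as control replicate 1 does.

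Other settings tried were scaling by total reads, a pseudocount of 0.1, a filter of 10 reads in each sample, no filter at all, voom on the recovered reads, a correction for GC content (a spline with 5 degrees of freedom, 99.9% of tested genes), a block by replicate number, alone or with that correction, and the omission of each sample in turn. A voom fit of genes with at least 10 reads in total, a pseudocount of 1 for the ratios, and other scalings of the summed Enpp1 reads were chosen after seeing the data.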

Additional observations from a re-analysis of the deposited data

How the results depend on the processing

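The fall of Ank was called in all 9 alternatives that kept every sample and in all 6 that left 1 out, between -0.75 and -0.63 on the log2 scale. That of Slc20a1 was called in all 9 of the former, and with 1 sample left out it ranged from -0.56 to -0.43 and was lost without each metformin replicate. Smpd3 was no longer called with the GC correction (0.28), the replicate block (0.34) or both (0.28), and ranged from 0.31 to 0.38 with 1 sample left out. The count of members higher was then 0 in each of these, and 0 to 1 with 1 sample left out, and the count lower was 1 to 2. Alpl and Slc20a2 kept their sign and stayed uncalled throughout, while Phospho1 ranged from 0.0057 to 0.32 with every sample kept, and with 1 sample left out from -0.17 to 0.31, where it turned negative without control replicate 1 (-0.17) or metformin replicate 1 (-0.0068). Enpp1 was -2.86 to -2.26 with 1 sample left out, and -0.080 in a fit with no filter, where the pseudocount of 1 far exceeds its FPKM. With a pseudocount the ratios that hold Enpp1 turned: Enpp1 to Ank to 0.10 (pseudocount 0.1) and 0.61 (pseudocount 1), and Alpl to Enpp1 to -0.080 (pseudocount 1). With 1 sample left out, Alpl to Enpp1 ranged from 1.96 to 2.92, Alpl to Ank from 0.33 to 0.64, Enpp1 to Ank from -2.38 to -1.54 and Slc20a1 to Slc20a2 from -0.74 to -0.65. Phospho1 to Smpd3 ranged from -0.71 to 0.44, and turned positive without control replicate 2 (0.16) or 3 (0.44) or metformin replicate 2 (0.055) or 3 (0.11). Among all genes, 926 to 2974 were higher and 486 to 2587 were lower with 1 sample left out, the most without control replicate 1 in both directions. The number lower was 2433 with the GC correction, 698 with the block and 1889 with both. Of the listed pathway genes, 3 were higher and 8 lower with no filter, 4 were higher with the block, and 1 to 15 were higher and 8 to 16 lower with 1 sample left out. Of 300 values of the 20 called pathway genes, 58 lost the call and 0 reversed. The cause of these changes was not tested.

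The replicate numbers showed no sign of pairing the samples: deviations of same-numbered samples had correlations across genes of -0.053, 0.00027 and -0.055, and 0 of 6 samples correlated best with their own number. With 3 samples a group and control replicate 1 apart from the other controls, these values cannot exclude pairing. With the block, no call on a member changed except that on Smpd3. Depth limits Enpp1, at 1 to 15 reads per sample, and Phospho1, at 11 to 60.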
